A study of Mus musculus with 6 samples.

Results

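The insulin signalling and glucose transporter genes of mouse skeletal muscle were followed through 6 RNA-seq libraries. The set held 10 genes, chosen by symbol from the deposited count table of 24054 genes: Insr, Irs1, Irs2, Pik3r1, Akt1, Akt2, Gsk3b, Slc2a4, Slc2a1 and Tbc1d4. The rule used no measured value, although earlier results of these data were known when the genes were listed. All 10 passed the filter on low counts, which kept 12660 genes for testing.

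Insulin binds its receptor on the muscle fibre, and the receptor phosphorylates docking proteins, the insulin receptor substrates. These recruit a lipid kinase whose product brings AKT to the membrane. AKT switches off glycogen synthase kinase, which releases glycogen synthesis, and it switches off the Rab-GTPase brake TBC1D4, which lets vesicles carrying the transporter GLUT4 reach the surface. Much of this control acts through phosphorylation and traffic of proteins, which mRNA levels do not record.

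Gastrocnemius, a calf muscle, was taken from male C57BL/6 mice. The 3 MI4KO libraries came from mice whose floxed Irf4 gene was deleted by Cre recombinase driven from Myl1, a fast myosin light chain gene. The 3 MI4OE libraries came from mice in which the same Myl1-Cre released an Irf4 transgene at the Rosa26 locus. Both groups therefore carried the Cre driver, and gastrocnemius of wild-type or flox mice was not analysed here, so every difference below is between a loss and an excess of IRF4. The sample labels name a high fat diet, while the study describes chow feeding, so the diet is in doubt. Ages were not given in the labels, and they do not state that each library came from a separate animal, so the p-values measure the spread between these libraries. Replicate numbers follow the order of the samples and pair no libraries across the genotypes.

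Irf4 itself followed the genotype label, with 6, 0 and 2 counts in MI4KO and 2864, 10557 and 5911 counts in MI4OE. Irf4 is the interferon regulatory factor that the study removed or added. It rose (edgeR quasi-likelihood test, adjusted p = 0.0055). Leaving out MI4KO replicate 1 brought that adjusted p to 0.0587. The log2 fold change (MI4OE minus MI4KO) was 12.6 in that fit and 11.2 with all libraries.

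Libraries held 18828605 to 29239585 expected counts, and 3 counts were worth 0.101 to 0.148 CPM (counts scaled to the TMM-adjusted size of a library). The 10 genes together took 0.0997% to 0.119% of the counts of a library. Muscle markers such as Acta1 and Ckm were abundant throughout, with 0 of 6 at 1.5-fold and an unadjusted p under 0.05. They were not even between libraries. Ckm was lower in MI4OE without overlap, at 22473 to 31025 CPM against 31816 to 44001 CPM in MI4KO. Mb ran from 305 to 9763 CPM over the 6 libraries. Markers of other cells and fibre types also differed between libraries. The summed level of 6 adipocyte markers was 56.2, 134 and 568 CPM in MI4KO and 6.25, 34.8 and 9.76 CPM in MI4OE, and all 6 were lower in MI4OE by 1.5-fold or more with an unadjusted p under 0.05. The 6 fibroblast markers summed to 204 to 309 CPM in MI4KO and 358 to 484 CPM in MI4OE, and 6 of 6 were higher by the same criterion. The 7 endothelial markers summed to 86.1 to 140 CPM in MI4KO and 161 to 318 CPM in MI4OE, with 4 of 7 at the criterion. The 7 slow-fibre markers summed to 23.5, 110 and 57.5 CPM in MI4KO and to 6266, 35.4 and 565 CPM in MI4OE. At the criterion 6 of 7 were higher in MI4OE, but the groups overlapped for each of the 7. Schwann cell markers ran from 28.4 to 123 CPM in MI4KO and from 77.2 to 223 CPM in MI4OE with 0 of 6 at the criterion, and erythroid markers from 112 to 173 CPM and from 162 to 463 CPM with 1 of 3 tested. The macrophage markers ran from 14.4 to 19.2 CPM and from 12.3 to 21.9 CPM, with 0 of 4 at the criterion. Of all genes tested, 6.64% were at the criterion, 2.28% lower and 4.36% higher in MI4OE. In bulk muscle, fewer cells of a type and less RNA per cell cannot be told apart.

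Libraries differed in level with transcript length, and MI4OE replicate 1 stood farthest from the others over all genes, with a chi-square per gene of 174 to 354 against each of the rest, where other pairs had 44.1 to 110. Over the 947 tested genes with transcripts under 1000 bases, the median log2 CPM lay 0.46 above the mean of the 6 libraries in MI4OE replicate 1. It was -0.38 in MI4KO replicate 2, -0.27 in MI4OE replicate 2 and -0.08 to 0.17 in the other 3. Over the 1334 tested genes with transcripts longer than 6000 bases, it was highest in the libraries numbered 2, at 0.25 in MI4KO and 0.18 in MI4OE, and ran from -0.18 to 0.04 in the other 4. The mean transcript length was 6230 to 9355 bases for Insr, Irs1, Gsk3b, Tbc1d4 and Pik3r1, so values without both libraries numbered 2 are given for them. Of the 2 Pik3r1 transcripts, 1 has 5826 bases and 1 has 6915. The other 5 genes had a length of 2572 to 4012 bases. Without MI4OE replicate 1 the log2 fold changes (MI4OE minus MI4KO) of Tbc1d4, Irs1, Pik3r1 and Akt2 were -0.83, -0.49, -0.44 and -0.24, and those of Insr and Gsk3b were above 0, at 0.06 and 0.08.

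**Figure D1:**
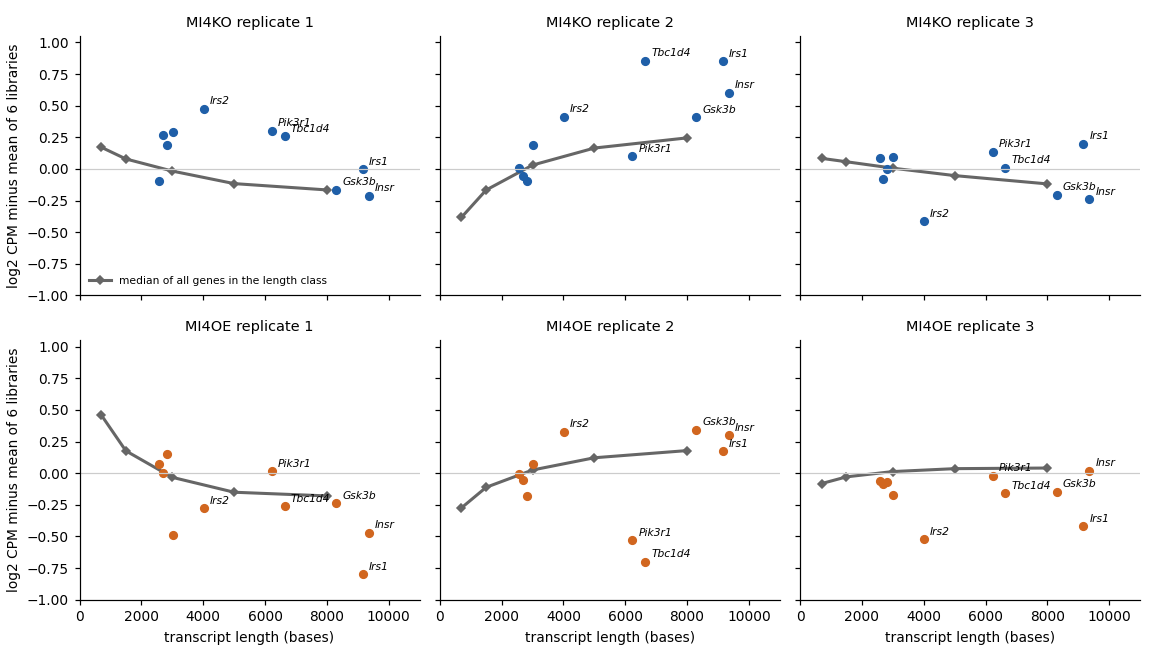
Log2 CPM of each of the 10 genes minus its mean over the 6 libraries, against transcript length in bases, 1 panel per library; the grey line joins the medians of all tested genes in 5 length classes, each placed at a nominal length. In MI4KO replicate 2 the line climbs to 0.25 above 6000 bases, and Tbc1d4, Irs1, Insr and Gsk3b lie above it there; in MI4OE replicate 2 Tbc1d4 and Pik3r1 lie far below it. Genes with transcripts under 4000 bases are not labelled.

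Per length of transcript, GLUT4 mRNA was the most abundant of the set. Slc2a4, which encodes this insulin-responsive transporter, averaged 299.5 TPM (RSEM's abundance per length of transcript) over the 6 libraries, with a range of 282 to 322. Akt2 followed at 166 TPM, from 108 to 211, and Akt1 at 38.6 TPM, from 35.8 to 42.5. None of these 3 ranges met the next. Below them came Gsk3b at 10.1, Irs1 at 7.96, Insr at 7.26, Slc2a1 at 4.85, Tbc1d4 at 4.57, Pik3r1 at 4.47 and Irs2 at 3.73 TPM. From Gsk3b to Irs2 the ranges of neighbours in this order overlapped, so the order of neighbours is not resolved by the spread between libraries, while the lowest Gsk3b library, at 7.16 TPM, lay above the highest of Slc2a1, Pik3r1 and Irs2.

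Between the genotypes, none of the 10 genes passed the test over all genes. An adjusted p under 0.05 was reached by 0 of 10, against 0.0237% of the genes tested, 3 of 12660. An unadjusted p under 0.05 was reached by 1 of the 10, Tbc1d4, against 7.58% of all genes (2.68% lower and 4.9% higher in MI4OE), and the same gene was the 1 that also differed by 1.5-fold, against 6.64% (2.28% lower in MI4OE). Lower levels in MI4OE with no overlap between the groups were seen for 3 of 10, Tbc1d4, Pik3r1 and Akt2, against 5.48% of all genes, and higher levels without overlap for 0 of 10, against 7.38%. The estimated log2 fold change, MI4OE minus MI4KO, was below 0 for all 10, as it was for 50% of all genes. Its median over the 10 was -0.22, with a median of -4.3e-05 over all genes tested. With total counts in place of TMM scaling, 6 of the 10 were below 0 and their median was -0.14, where the median of all genes was 0.09. The genes share libraries and cannot be counted as independent.

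**Figure D2:**
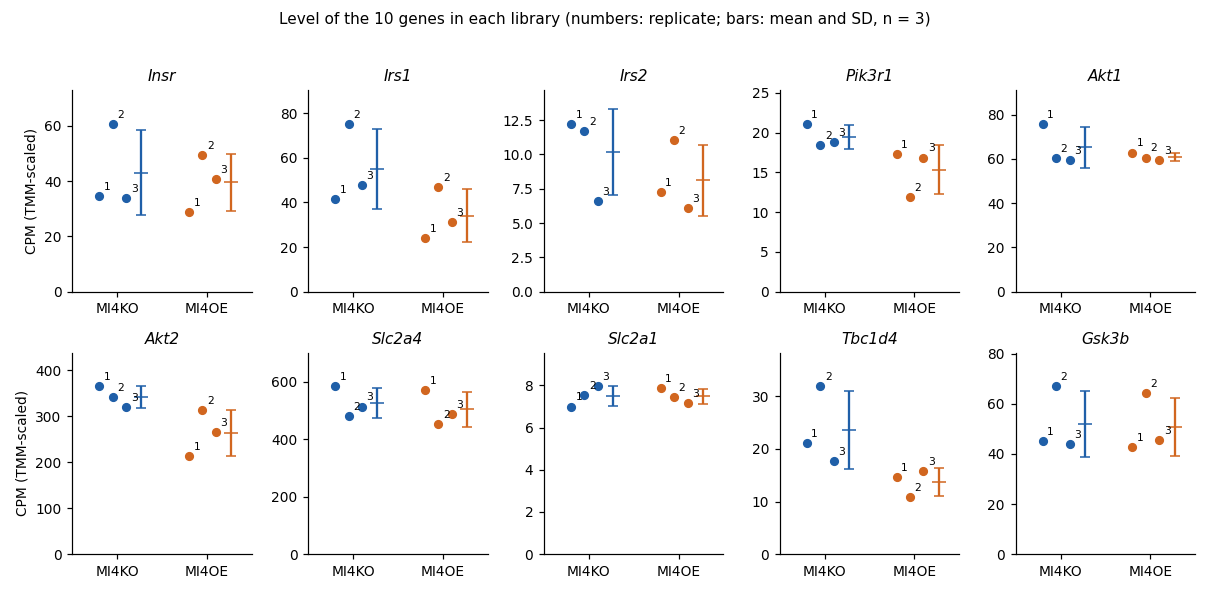
Level of each of the 10 genes in CPM, on axes that start at 0, in the 3 MI4KO (blue) and 3 MI4OE (orange) libraries; digits give the replicate, and the bars the mean and SD. Tbc1d4, Pik3r1 and Akt2 are the genes whose groups do not overlap, and replicate 2 is highest in both groups for Insr, Irs1 and Gsk3b.

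**Figure D3:**
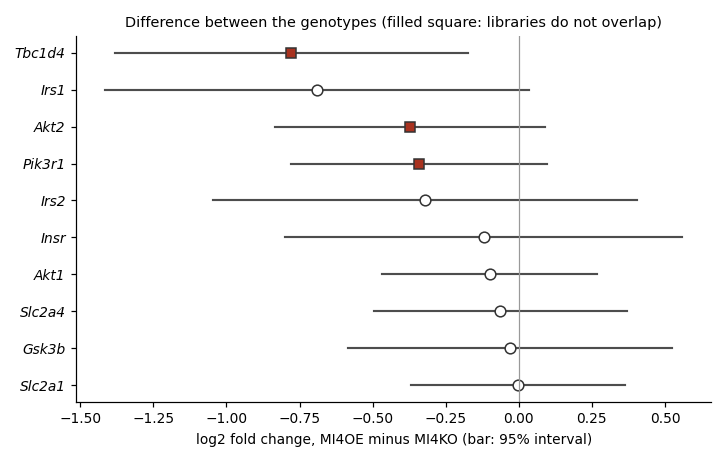
Log2 fold change of the 10 genes (MI4OE minus MI4KO) with its 95% interval from edgeR's quasi-likelihood fit, ordered by size; filled squares mark genes whose libraries do not overlap between groups. The interval leaves out 0 for Tbc1d4, from -1.38 to -0.18, and spans it for the other 9.

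Insr encodes the insulin receptor, the tyrosine kinase that starts the pathway. It measured 34.6, 60.8 and 33.9 CPM across MI4KO against 28.9, 49.4 and 40.7 CPM across MI4OE. Replicate 2 was the highest of each group, and the groups overlapped. The estimated log2 difference was -0.12 with a 95% interval from -0.80 to 0.56 (edgeR adjusted p = 0.949). Without both libraries numbered 2 the estimate was 0.02. Its value turned above 0 also without MI4KO replicate 2, at 0.20.

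Irs1 and Irs2 encode the main docking proteins of the receptor in muscle. The 250 bases before the start of each gene in RefSeq (GRCm38.p6), both on the minus strand, are shown because the genes share a pair of motifs there. The Irs1 window is chr1:82291440-82291689 and the Irs2 window chr8:11008930-11009179. Capitals mark CACGTG, the palindromic E-box, and TGTTTTG, the core of the insulin response element, known from Irs2 as a sequence that FoxO factors bind.
Irs1: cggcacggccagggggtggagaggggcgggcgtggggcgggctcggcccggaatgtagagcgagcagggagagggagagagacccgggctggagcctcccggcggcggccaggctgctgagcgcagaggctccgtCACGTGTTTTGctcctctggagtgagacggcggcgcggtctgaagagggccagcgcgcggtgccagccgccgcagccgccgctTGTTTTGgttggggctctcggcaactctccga
Irs2: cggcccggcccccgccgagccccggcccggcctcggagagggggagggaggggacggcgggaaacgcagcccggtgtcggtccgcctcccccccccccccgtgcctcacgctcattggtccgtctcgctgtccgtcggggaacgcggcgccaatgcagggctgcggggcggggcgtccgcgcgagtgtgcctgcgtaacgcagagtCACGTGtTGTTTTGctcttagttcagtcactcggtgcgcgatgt
In Irs1 the E-box and TGTTTTG overlapped by 2 bases, and a further TGTTTTG lay nearer the start. In Irs2 they were 1 base apart. The motifs were picked after these sequences had been read, and both strands were searched. CACGTG was found in 6.02% and TGTTTTG in 5.56% of 32851 windows of the same length before all RefSeq starts. The pair spaced like this, in either orientation, was in 7 windows, which is 0.0213%. The spacing limits were set from Irs1 and Irs2, which are among the 7, so this share is a description only. A window was found for 8 of the 10 genes, 13 windows in all. Of these, 2 held CACGTG and 2 held TGTTTTG, in each case those of Irs1 and Irs2. The FoxO site TGTTTAC was in 1 of the 13, a start of Akt1, and in 3.17% of all windows. GAAA repeated after any 2 bases, the core of the interferon-stimulated response element that interferon regulatory factors bind, was in 0 of the 13 and in 2.98% of all windows. These are matches of letters and not mapped sites.

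The Irs1 level was 41.6, 75.3 and 47.8 CPM in MI4KO and 23.9, 47.0 and 31.2 CPM in MI4OE. The MI4OE libraries were lower except that their highest, replicate 2, lay above the lowest MI4KO library. The means were 54.9 ± 18.0 and 34.0 ± 11.8 CPM (SD, n = 3), a log2 fold change of -0.69 with a standard error of 0.31 and a 95% interval from -1.41 to 0.04 (edgeR unadjusted p = 0.0598, adjusted p = 0.683). Without both libraries numbered 2 the estimate was -0.70 (unadjusted p = 0.022, adjusted p = 0.544), and with each library's trend with transcript length removed it was -0.73 (unadjusted p = 0.00872, adjusted p = 0.439). Both fits were edgeR's and were chosen after the data had been seen. Leaving out MI4KO replicate 2 alone moved it to -0.40.

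Irs2 had the lowest mean TPM of the 10, though not the lowest value in every library, and measured 12.2, 11.7 and 6.58 CPM across MI4KO against 7.23, 11.05 and 6.09 CPM across MI4OE. Replicate 3 was the lowest of each group, and the groups overlapped. The log2 fold change was -0.32 with a 95% interval from -1.05 to 0.40 (edgeR adjusted p = 0.857). It ran from -0.61 without MI4OE replicate 2 to -0.16 without MI4OE replicate 3. Irs1 mRNA exceeded Irs2 mRNA in every library, by 1.46, 2.76 and 3.13 times in MI4KO and by 1.42, 1.83 and 2.20 times in MI4OE, in TPM. The ratios overlapped between the groups (exact two-sided permutation test, p = 0.3, adjusted over 3 ratios to 0.45), where 0.1 is the smallest p that 3 libraries against 3 can give.

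Pik3r1 encodes regulatory subunits of the lipid kinase phosphoinositide 3-kinase. It has a promoter for the long form p85α and one inside the gene for a short form. Both are printed because the counts were split between the forms. The long-form window is chr13:101768218-101768467 and the short-form window chr13:101692631-101692880, minus strand, GRCm38.p6. Neither held any of the 4 motifs, so all letters are in lower case.
Pik3r1 long form: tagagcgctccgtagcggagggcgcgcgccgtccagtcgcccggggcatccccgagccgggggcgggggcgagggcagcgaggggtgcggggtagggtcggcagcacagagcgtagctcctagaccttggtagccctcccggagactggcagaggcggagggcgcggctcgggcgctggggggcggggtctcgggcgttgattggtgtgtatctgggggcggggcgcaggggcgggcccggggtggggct
Pik3r1 short form: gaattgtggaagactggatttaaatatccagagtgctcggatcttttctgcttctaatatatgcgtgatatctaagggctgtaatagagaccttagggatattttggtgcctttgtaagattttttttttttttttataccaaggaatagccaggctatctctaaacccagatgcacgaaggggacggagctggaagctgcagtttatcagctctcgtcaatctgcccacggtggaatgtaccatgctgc
The long-form window held 76.4% G and C and the short-form window 42.4%. By the GENCODE annotation the long form has 724 codons and the short form 454.

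Pik3r1 measured 21.1, 18.4 and 18.81 CPM across MI4KO against 17.3, 11.9 and 16.9 CPM across MI4OE. All MI4OE libraries lay below all MI4KO libraries, the nearest by 18.4 against 17.3 CPM. The means were 19.4 ± 1.47 and 15.3 ± 3.04 CPM (SD, n = 3), and the log2 difference was -0.34 with a standard error of 0.19 (edgeR adjusted p = 0.738). Without MI4OE replicate 2, the lowest library, it was -0.19, and without both libraries numbered 2 it was -0.23.

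The short form took 74.5%, 45.1% and 67.3% of the Pik3r1 counts in MI4KO and 66.1%, 48.5% and 52.4% in MI4OE. The 2 lowest shares were those of the libraries numbered 2, 1 in each group, which are also those with higher counts for long transcripts. The mean shares of 62.3% and 55.7% differed by less than the spread between libraries (two-sided exact permutation test, p = 0.6). RSEM divides short reads between forms that share most of their sequence, so the shares are estimates. Counts assigned to the long form were 132, 255 and 183 in MI4KO and 119, 175 and 182 in MI4OE.

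**Figure D4:**
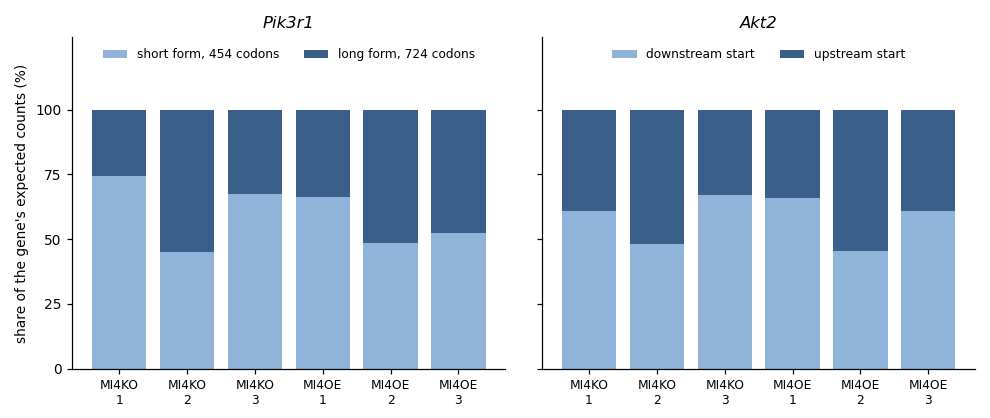
Share of the expected counts of Pik3r1 and of Akt2 assigned to each of 2 transcripts, in percent, in each library. Replicate 2 of both groups has the smallest share of the Pik3r1 short form, 45.1% and 48.5%, and the largest of the upstream Akt2 start, 51.9% and 54.5%.

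Akt1 and Akt2 encode the kinases on which the metabolic actions of insulin converge, with Akt2 the form tied to glucose uptake. Akt2 measured 365, 341 and 319 CPM across MI4KO against 213, 313 and 266 CPM across MI4OE. The groups did not overlap, although MI4OE replicate 2 at 313 CPM was close to the lowest MI4KO library at 319 CPM. The log2 fold change was -0.37 with a 95% interval from -0.83 to 0.09 (edgeR adjusted p = 0.729). MI4OE replicate 1, the lowest, was also the library with slow-fibre markers at 6266 CPM and with fast-fibre markers at 123471 CPM, where the other 5 held 189416 to 249014 CPM. Of the fast-fibre markers, Myh1 was highest there, at 10167 CPM against 566 to 5964 CPM elsewhere. Tnni2, at 12095 CPM, lay within the range of the other libraries, and each of the rest was lowest there. Without MI4OE replicate 1 the Akt2 estimate was -0.24. The part of fibre type in the Akt2 level was not tested.

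Akt1 measured 75.9, 60.6 and 59.4 CPM across MI4KO against 62.9, 60.6 and 59.4 CPM across MI4OE. Apart from MI4KO replicate 1 the libraries lay within 59.4 to 62.9 CPM. Its log2 fold change came to -0.10 with a 95% interval from -0.47 to 0.27 (edgeR adjusted p = 0.916), and it was 0.02 without MI4KO replicate 1. Akt2 exceeded Akt1 by 3.03 to 4.95 times in TPM, and the lowest ratio was again that of MI4OE replicate 1 (two-sided exact permutation test between the groups, p = 0.2, adjusted 0.45). Both Akt2 transcripts encode a protein of 481 codons. The one that starts upstream took 39.1%, 51.9% and 32.9% in MI4KO and 33.9%, 54.5% and 39.3% in MI4OE, again highest in the libraries numbered 2.

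Gsk3b encodes glycogen synthase kinase 3β, which AKT inhibits. It measured 44.95, 67.0 and 43.8 CPM across MI4KO against 42.8, 64.1 and 45.6 CPM across MI4OE. The libraries numbered 2 were the highest of each group and the other 4 lay within 42.8 to 45.6 CPM. This gave a log2 fold change of -0.03 with a 95% interval from -0.58 to 0.52 (edgeR adjusted p = 0.99), and -0.01 without both libraries numbered 2. Across the 6 libraries Insr and Gsk3b had a Pearson r of 0.93 in log2 CPM, as a description of genes that share libraries and long transcripts, of 9355 and 8298 bases.

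Slc2a4 encodes GLUT4, the transporter that insulin and contraction bring to the fibre surface. It measured 584, 481 and 514 CPM across MI4KO against 571, 453 and 488 CPM across MI4OE. The groups overlapped, with replicate 1 the highest and replicate 2 the lowest of each. The means were 526 ± 52.6 and 504 ± 60.5 CPM (SD, n = 3), a log2 fold change of -0.06 with a 95% interval from -0.50 to 0.37 (edgeR adjusted p = 0.965). In TPM the means were 299.8 ± 20.2 and 299.2 ± 10.54.

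Slc2a1 encodes GLUT1, the transporter that serves basal uptake and is also found in endothelium and other cells of muscle. It was the steadiest of the 10 in CPM and measured 7.0004, 7.53 and 7.96 CPM across MI4KO against 7.87, 7.45 and 7.15 CPM across MI4OE, with 1.14 times between the highest and the lowest library. In TPM it was not the steadiest, as it ran from 3.72 to 5.54, where Slc2a4 ran from 282 to 322. Its log2 fold change of -0.002 had a 95% interval from -0.37 to 0.36 (edgeR adjusted p = 0.9996). Endothelial markers, by contrast, summed to 86.1, 137 and 140 CPM in MI4KO and to 318, 161 and 191 CPM in MI4OE. GLUT4 mRNA exceeded GLUT1 mRNA by 55.3 to 75.7 times in TPM (two-sided exact permutation test between the groups, p = 0.8, adjusted 0.8).

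Tbc1d4 encodes the Rab-GTPase-activating protein, also called AS160, that holds GLUT4 vesicles inside the fibre until AKT phosphorylates it. Its window before the RefSeq start is shown because Tbc1d4 had the largest difference of the set with all 6 libraries. Without MI4OE replicate 2 that of Irs1 was larger, at -0.996 against -0.632. The window is chr14:101609192-101609441, minus strand, GRCm38.p6, and held none of the 4 motifs.
Tbc1d4: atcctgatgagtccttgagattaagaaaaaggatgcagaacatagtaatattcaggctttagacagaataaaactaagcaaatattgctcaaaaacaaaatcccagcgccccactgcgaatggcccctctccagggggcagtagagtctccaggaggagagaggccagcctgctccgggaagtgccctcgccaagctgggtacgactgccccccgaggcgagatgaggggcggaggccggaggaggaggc
Tbc1d4 measured 21.1, 31.9 and 17.7 CPM across MI4KO against 14.7, 10.8 and 15.8 CPM across MI4OE. Every MI4OE library lay below every MI4KO library, the nearest being 15.8 against 17.7 CPM. The means were 23.6 ± 7.41 and 13.7 ± 2.61 CPM (SD, n = 3), a 1.72-fold difference. On the log2 scale the difference was -0.78 (standard error 0.26), with a 95% interval from -1.38 to -0.18 (edgeR unadjusted p = 0.018). Its adjusted p of 0.546 over all genes did not pass, and it ran from 0.248 to 0.912 over 16 alternative fits. The exact permutation test, two-sided, reached its smallest possible p = 0.1.

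The size of the Tbc1d4 difference rested largely on 2 libraries. MI4KO replicate 2 was the highest and MI4OE replicate 2 the lowest of all 6, although both were high for long transcripts. It came to -0.51 without MI4KO replicate 2 (edgeR unadjusted p = 0.0562), to -0.63 without MI4OE replicate 2 (unadjusted p = 0.0557) and to -0.35 without both (unadjusted p = 0.153). With the trend with transcript length removed it was -0.79 (unadjusted p = 0.00959, adjusted p = 0.442). The unadjusted p was under 0.05 in 12 of 16 alternative fits for Tbc1d4 and in 5 of 16 for Irs1, and the sign was the same in each. Without MI4KO replicate 3 the Tbc1d4 difference was -0.96 and the Irs1 difference -0.79. Adipocytes also express genes of this set, Irs1 and Tbc1d4 among them. The 6 adipocyte markers summed to more in each MI4KO library (56.2, 134 and 568 CPM) than in any MI4OE library (6.25, 34.8 and 9.76 CPM). The part of adipocyte mRNA in the differences was not tested.

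**Figure D5:**
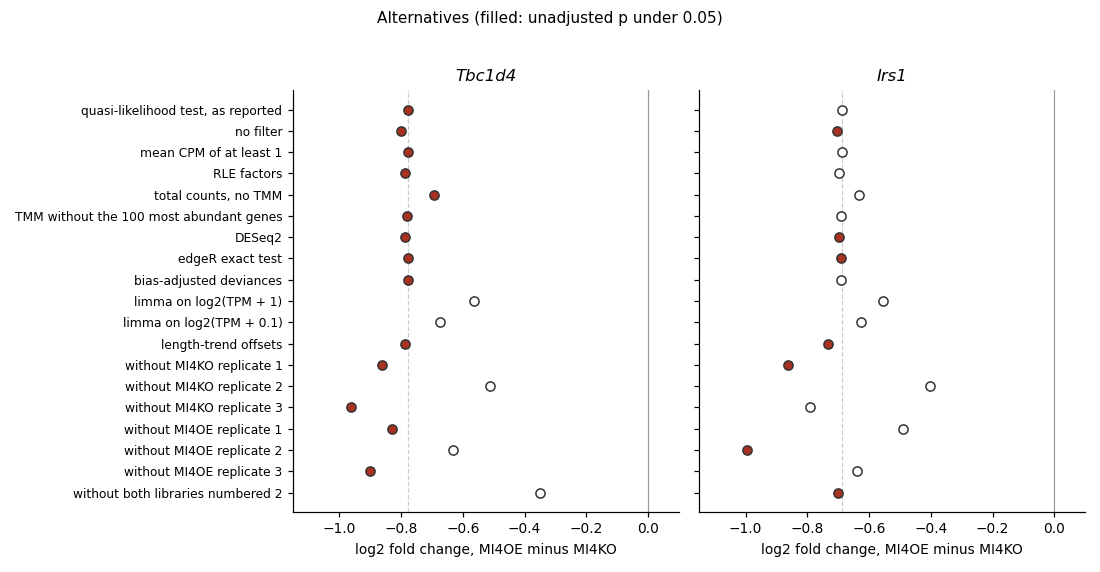
Log2 fold change (MI4OE minus MI4KO) of Tbc1d4 and Irs1 as reported and under 18 alternatives, 2 of them chosen after the data were seen; filled points have an unadjusted p under 0.05, and the dashed line is the reported value. All points lie below 0; Tbc1d4 comes nearest to it without both libraries numbered 2, at -0.35.

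The genes whose levels followed these members most closely over the 6 libraries, out of 11296 compared, were found for the 3 members with the largest SD of log2 CPM. For Irs1 they were Ccdc73, Tob1 and Uevld, with Pearson r of 0.993, 0.990 and 0.990 in log2 CPM. For Tbc1d4 they were Gm1943, Trmt1l and Smpdl3b, with r of 0.970, 0.964 and 0.959. For Irs2 they were BC048403, Cln8 and Fbxo34, with r of 0.978, 0.976 and 0.971. With 6 libraries and so many genes, values this high are a description of likeness and no more.

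The rest of the pathway, in 71 other genes of which 65 were tested, was counted by the same thresholds. By edgeR, none had an adjusted p under 0.05 and 4 had an unadjusted p under 0.05, all of them at 1.5-fold, 3 higher and 1 lower in MI4OE. The same criterion was met by 6.64% of all genes (4.36% higher and 2.28% lower), so 4 of 65 is near that share. Each of the 4 had an unadjusted p over 0.05 with some single libraries left out. Their median log2 fold change was -0.05, with 27 above 0 and 38 below. The groups did not overlap for 6 of the 65, 3 higher and 3 lower in MI4OE, against 12.9% of all genes (7.38% higher and 5.48% lower).

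Among 14 genes that act at the receptor, 1 was at the criterion. Enpp1 encodes a membrane phosphodiesterase that binds the receptor and dampens it. It measured 0.246, 0.555 and 0.437 CPM across MI4KO against 1.23, 0.489 and 1.41 CPM across MI4OE, with a log2 fold change of 1.31 (edgeR unadjusted p = 0.0399, adjusted p = 0.626). These are low levels, and the groups overlapped. Grb14, an adaptor that inhibits the receptor kinase, had the largest difference of the list and measured 5.08, 4.32 and 12.8 CPM across MI4KO against 52.6, 5.24 and 18.0 CPM across MI4OE. Its log2 fold change of 1.76 did not pass the test (edgeR adjusted p = 0.677) and was 0.64 without MI4OE replicate 1, the library with the most slow-fibre mRNA. The part of fibre type in the Grb14 level was not tested. Ptprf, a receptor tyrosine phosphatase, had 0.75 on the same scale (edgeR adjusted p = 0.84), which was 1.49 without MI4KO replicate 2 and 0.18 without MI4OE replicate 2.

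Of 8 genes of phosphoinositide turnover, 0 were at the criterion. Pik3r2, which encodes another regulatory subunit of the lipid kinase, had a log2 fold change of 0.23 (edgeR adjusted p = 0.791).

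Of 11 genes around AKT and its targets, 0 were at the criterion. Foxo1, a transcription factor that AKT excludes from the nucleus, stood at 110 CPM in MI4KO replicate 1 and at 19.7 to 26.1 CPM elsewhere. The Foxo1 estimate of -1.04 (edgeR adjusted p = 0.781) turned to 0.28 without that library. Irs2 was also highest in that library, at 12.2 CPM, but by 12.2 against 11.7 CPM in MI4KO replicate 2. Trib3, a pseudokinase that binds AKT, had a log2 fold change of 1.03 (edgeR adjusted p = 0.71) and 0.59 without MI4OE replicate 1.

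Of 16 genes of GLUT4 vesicle traffic, 2 were at the criterion, in opposite directions. Exoc7, a subunit of the exocyst that tethers vesicles at the membrane, measured 164, 168 and 108 CPM across MI4KO against 63.2, 112 and 80.0 CPM across MI4OE. The groups overlapped narrowly, and the log2 fold change was -0.79 (edgeR unadjusted p = 0.021, adjusted p = 0.556). Pak1, a kinase downstream of RAC1 in the remodelling of actin, measured 14.6, 12.3 and 18.2 CPM across MI4KO against 17.6, 29.0 and 22.0 CPM across MI4OE, with a log2 fold change of 0.61 (edgeR unadjusted p = 0.0342, adjusted p = 0.612). Pak1 was 0.27 without both libraries numbered 2, and Exoc7 was -0.93.

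Among the other glucose transporters and the hexokinases, which trap glucose inside the cell, 7 of 13 genes were tested and 1 was at the criterion. Hk1 measured 5.90, 6.14 and 6.58 CPM across MI4KO against 15.005, 7.38 and 9.41 CPM across MI4OE. The groups did not overlap, and the log2 fold change was 0.77 (edgeR unadjusted p = 0.0229, adjusted p = 0.565). It was 0.43 without MI4OE replicate 1, the library highest in slow-fibre, endothelial and erythroid markers at 6266, 318 and 463 CPM. Fibroblast markers there summed to 476 CPM, below the 484 CPM of MI4OE replicate 3. The part of these cells and fibres in the Hk1 difference was not tested. Slc2a3, the transporter GLUT3, had a log2 fold change of -0.58 (edgeR adjusted p = 0.848) and -0.16 without MI4OE replicate 1. Slc2a2, Slc2a5, Slc2a6, Slc2a7, Slc2a13 and Hk3 had too few counts to be tested.

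Of 9 regulators of Slc2a4 transcription, 0 were at the criterion. Those with the largest estimates were Myod1 and Mef2a, both at -0.31 with edgeR adjusted p-values of 0.864 and 0.853. They came nearest to 0 at -0.09 without MI4KO replicate 3 for Myod1 and at -0.07 without MI4OE replicate 1 for Mef2a. Like Slc2a4, they overlapped between the groups.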

How the data were processed

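Per the labels, the libraries were stranded and enriched for mRNA. The authors demultiplexed single-end reads with bcl2fastq 2.17 and aligned them to UCSC transcripts with Bowtie2 2.1.0. The genome build was not given in the sources used here. The deposited expected counts and TPM values are RSEM 1.2.15 estimates made by the authors per gene and transcript. Tables of the authors' own comparison hold fold changes, p-values, false discovery rates and scaled CPM and were not used. RSEM shares reads between near-identical transcripts, which makes their split uncertain.

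Expected counts were rounded and fitted with edgeR 4.0.16 (quasi-likelihood test, TMM, filterByExpr at a minimum count of 10 and total of 15, Benjamini-Hochberg adjustment over 12660 genes) in R 4.3.3. CPM used TMM-scaled library sizes. The calls were an adjusted p under 0.05 and the study's criterion of 1.5-fold with an unadjusted p under 0.05. Intervals are 95% intervals of the fit, and ranges of libraries were compared directly. The floor of 3 counts covers counting error only. Alternatives were other filters, scalings and tests (DESeq2 1.42.0, the exact test, bias-adjusted deviances, limma 3.58.1 on log2(TPM + 1) and log2(TPM + 0.1)) and leaving out each library. Length offsets and leaving out both libraries numbered 2 were added after the data were seen. The genes, lists and naming rule were chosen with earlier results of these data known. Named were the 10 genes, Irf4, list genes at the criterion, the 2 with the largest change in each list at a mean CPM of at least 1, and the 3 genes most alike to each of the 3 most variable members. A gene that this rule names is not reported here. Groups came from the genotype label, and no 2 libraries agreed within sampling noise. Promoter windows are RefSeq GRCm38.p6 sequences, and codons come from GENCODE.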

Additional observations from a re-analysis of the deposited data

How the results depend on the processing

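No member had an adjusted p under 0.05 under any of the alternatives run. The number with an unadjusted p under 0.05, 1 as reported, was 2 with no filter, DESeq2, the exact test and the length offsets (added after seeing the data), 0 with limma on either TPM scale, and 0 to 2 with 1 library left out, the lowest without MI4KO replicate 2 and the highest without MI4KO replicate 1. The number at 1.5-fold as well took the same values, 2, 0 and 0 to 2. Over all genes, 3 had an adjusted p under 0.05, but 111 with DESeq2, 108 with the exact test, and 1 to 4 with 1 library left out. At 1.5-fold and an unadjusted p under 0.05 there were 841 genes, 468 with limma on log2(TPM + 1), and 590 to 1314 with 1 library left out. In the wider pathway the 4 genes became 1 to 7 with 1 library left out and 8 without both libraries numbered 2. The median log2 fold change of the 10 genes ran from -0.33 to -0.16 with 1 library left out, and that of the wider pathway from -0.11 to 0.02. The causes were not tested.

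Differences near 0 changed sign, as did the larger one of Foxo1. With total counts Akt1 was 0.0037, Slc2a4 0.041, Slc2a1 0.084 and Gsk3b 0.041. With limma on log2(TPM + 1) Slc2a1 was 0.049 and Gsk3b 0.033, and on log2(TPM + 0.1) 0.061 and 0.038. With a mean CPM of at least 1 Slc2a1 was 0.00042. Without both libraries numbered 2 Insr was 0.020 and Slc2a1 0.0031. With 1 library left out Insr ran from -0.31 to 0.20, Akt1 from -0.18 to 0.016, Slc2a4 from -0.16 to 0.013, Slc2a1 from -0.054 to 0.029, Gsk3b from -0.23 to 0.19 and Foxo1 from -1.44 to 0.28. The difference between the groups (MI4OE minus MI4KO) in the log2 TPM ratio of Slc2a4 to Slc2a1, -0.064 with all libraries, ran from -0.13 to 0.062, that for Irs1 to Irs2 from -0.72 to -0.17 and that for Akt2 to Akt1 from -0.43 to -0.14. No paired analysis was possible because nothing in the labels links a library of one genotype to one of the other. At 3 libraries a group, the 95% intervals of the 10 genes reached 0.37 to 0.73 log2 units either side of the estimate.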
